A study of Mus musculus with 6 samples.

Results

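The genes described here are the ligands, receptors, extracellular inhibitors, latent binding proteins and SMAD proteins of the TGF-beta, BMP and activin pathways. They were taken by symbol from the deposited table, and 57 of its 23381 gene symbols matched. The table holds RNA levels in whole 4T1 mammary tumours grown in the inguinal fat pad of Balb/c mice, given as 10 weeks old, from 500000 injected cells. 4T1 is a mouse mammary carcinoma line syngeneic to Balb/c, so that each tumour mixes carcinoma cells with host stroma and immune cells. After tumours had formed, mice were given 3 doses weekly, over 3 weeks, of Vismodegib (2 mg per mouse) or of its vehicle DMSO. Vismodegib is a small molecule inhibitor of Smoothened, through which Hedgehog ligands signal. There were 3 DMSO and 3 Vismodegib libraries. Whether every library is from a different mouse is not stated in the labels, so that the p-values measure only the spread between these samples, which may be technical. The comparison asked how RNA levels in the tumour differed between the drug and its vehicle.

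Ligands of this family are secreted as dimers. TGF-beta is held in the matrix in a latent complex with a latent TGF-beta binding protein until it is released. Each ligand joins type I and type II receptor kinases, which phosphorylate SMAD2 and SMAD3 for TGF-beta and activin, or SMAD1, SMAD5 and SMAD9 for BMPs. These pair with SMAD4 to act on genes, among them those of the inhibitory SMAD6 and SMAD7. In mammary tumours TGF-beta is known both as a growth inhibitor of epithelium and as a driver of matrix production and invasion.

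Levels are given in RPKM, reads scaled by gene length and by the total reads of the library, so that they may be compared between genes. Unless stated otherwise, the values of a group are listed in the order of replicates 1, 2 and 3. Of the 57 genes, 35 averaged 0.5 RPKM or more over the 6 libraries and were tested, and 22 lay below that level. A difference is Vismodegib minus DMSO on the scale log2(RPKM + 0.5), which understates the change of low genes. It was fitted with limma over 11818 genes, and a gene was called at an adjusted p under 0.05.

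No gene of the family was called, and none of all genes tested was (percent called 0). Adjusted p = 1 for each of the 35 by limma with Benjamini-Hochberg adjustment. At an unadjusted p under 0.05 there were 2 of the 35, Fstl1 and Inhbb, both higher in Vismodegib, against 1.94% of all genes tested in that direction. The count was 0 under median-ratio scaling and after removal of trends on GC content and length. It was also 0 without any one of DMSO replicates 2 and 3 and Vismodegib replicates 1 and 3. In those settings the share over all genes was 1.1% to 2.5%, in either direction. Under library weights, which were far highest for DMSO replicate 3, the count was 7 of 35, against 23.1% of all genes. In 3 of the 35, Fstl1, Smad3 and Ltbp2, all treated libraries stood above all DMSO libraries, against 4.29% of all genes tested in that direction and 5.03% in either. The reverse was seen in 0 of the 35, against 0.745% of all genes. Under median-ratio scaling between the libraries, the count without overlap in either direction was 0 of 35, against 5.25% of all genes. Without DMSO replicate 1 it was 11 of 35 (31.4%), near the 27.0% of all genes. Differences were above 0 in 26 of the 35 and below 0 in 9, with a median of 0.19. Over all genes tested, 58.4% were above 0, with a median of 0.05. Without DMSO replicate 2 the median was 0.09 in the family and 0.09 over all genes, and without Vismodegib replicate 1 it was 0.09 and -0.02. Library weights gave 21 of 35 above 0, with medians of 0.07 and 0.01. Under quantile normalization these shares were 62.9% of the family and 47.4% of all genes. With median-ratio scaling they were 68.6% and 49.2%. The 95% intervals had a median width to either side of 0.725, and in 19 of the 35 they lay within -1 and 1, which is a fold of 2 on this scale.

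**Figure D1:**
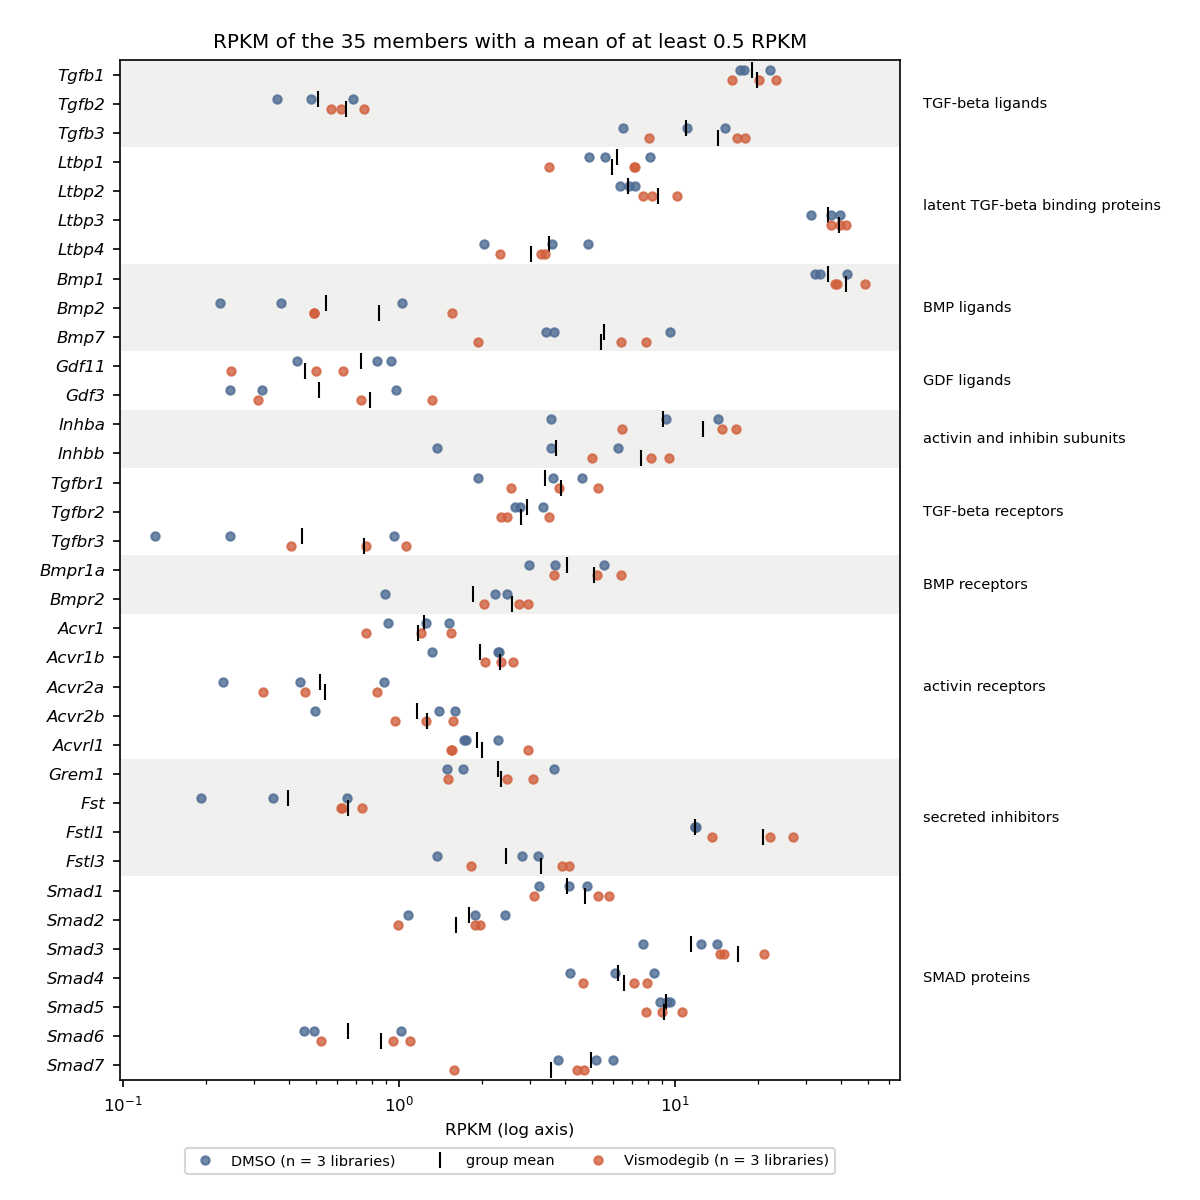
RPKM, on a log axis, of the 35 tested genes, by role. Each dot is a library (3 DMSO in blue, 3 Vismodegib in orange) and each black tick a group mean. The groups separate in Fstl1, Smad3 and Ltbp2 and overlap in the other rows.

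Some libraries stood apart across the family. DMSO replicate 2 held the lowest value in 17 of the 35 genes (48.6%), against 23.8% of all genes tested. Vismodegib replicate 1 held the highest value in 16 of the 35 (45.7%), against 26.9% of all genes. The family's median deviation from each gene's mean was -0.07, -0.31 and 0.06 in DMSO and 0.27, 0.10 and -0.16 in Vismodegib, so that the groups overlapped.

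The markers of mammary and 4T1 epithelium were high in every library, with a sum over 8 genes of 1644 to 2716 RPKM, as the label of the tissue says. The sum over 10 fibroblast markers was 95.8, 124.5 and 103.7 RPKM with the vehicle and 191.6, 118.1 and 235.1 RPKM with the drug. Differences were above 0 in 9 of 9 tested fibroblast markers, against 58.4% of all genes tested. The same held for 6 of 6 skeletal muscle, 4 of 4 adipocyte and 3 of 3 endothelial markers. It held for 6 of 8 epithelial, 3 of 4 T cell, 2 of 6 macrophage and 0 of 4 neutrophil markers. Sums over 6 endothelial markers ran from 11.7 to 26.7 RPKM in DMSO and from 15.4 to 32.7 RPKM in Vismodegib, and those over 6 macrophage markers from 1061 to 1924 and from 718 to 2489 RPKM. Adipocyte markers ran from 4.74 to 14.96 and from 8.26 to 29.8 RPKM, skeletal muscle markers from 8.79 to 133.5 and from 71.6 to 143.5 RPKM. Neutrophil markers ran from 19.6 to 195 and from 12.8 to 102 RPKM, T cell markers from 5.88 to 7.46 and from 4.51 to 8.20 RPKM. Markers listed at 0 in at least 1 library were Ly6g of neutrophils, Adipoq and Lep of adipocytes and Pvalb of muscle. In whole tumours, fewer cells of a type and less RNA per cell cannot be told apart, and the part of these cell types in the results was not tested.

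Among the 3 TGF-beta ligand genes, Tgfb1 and Tgfb3 were abundant and Tgfb2 was low. Tgfb1 (ENSMUSG00000002603.15, chromosome 7, 25687002 to 25705077, plus strand) had 17.3, 22.1 and 17.9 RPKM with the vehicle and 23.2, 16.1 and 20.1 RPKM with the drug. The highest and the lowest library were both Vismodegib. The difference on the log2 scale was 0.05 (95% interval -0.54 to 0.63), and -0.02 with median-ratio scaling. Tgfb3 (ENSMUSG00000021253.7, chromosome 12, 86056745 to 86079041, minus strand) had 15.3, 6.50 and 11.1 RPKM with the vehicle and 16.9, 8.11 and 17.9 RPKM with the drug. In each group replicate 2 was the lowest, and the groups overlapped. The fitted log2 difference was 0.37 (interval -0.54 to 1.28), and 0.05 without DMSO replicate 2. Within a library, Tgfb1 made up 52.0% to 76.3% of the summed RPKM of the 3 ligands, Tgfb3 22.4% to 46.4%, and Tgfb2 1.25% to 3.01%. Tgfb2 ran from 0.362 to 0.752 RPKM, with a log2 difference of 0.19. Other genes overlap exons of Tgfb2 and Tgfb3 on the other strand, and likewise of Ltbp2, Bmpr1a, Acvrl1, Fst and Fstl3, while Tgfbr3 and Smad5 overlap one on their own strand. The sources used here do not say whether strand was used in counting, so reads of such pairs cannot be told apart.

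The latent binding proteins tether TGF-beta to the matrix, except LTBP2, which does not bind it and is known from elastic fibres. Ltbp3 was the highest of the 4, at 65.1% to 73.7% of their summed RPKM. Ltbp3 (ENSMUSG00000024940.11, chromosome 19, 5740904 to 5758532, plus strand) had 39.7, 31.2 and 37.0 RPKM with the vehicle and 41.7, 36.9 and 39.6 RPKM with the drug. These 6 values lay close together, and the log2 difference was 0.13 (interval -0.41 to 0.67). Ltbp2 (ENSMUSG00000002020.15, chromosome 12, 84783212 to 84876532, minus strand) had 7.20, 6.32 and 6.86 RPKM with the vehicle and 10.2, 8.28 and 7.69 RPKM with the drug. All 3 treated libraries were higher, by a small gap. The log2 difference was 0.33 (interval -0.21 to 0.88, unadjusted p = 0.202 by limma), and the groups overlapped with median-ratio scaling, quantile normalization or removal of trends on GC content and length. Ltbp1 ran from 3.52 to 8.12 RPKM and Ltbp4 from 2.04 to 4.84 RPKM, with log2 differences of -0.09 and -0.14.

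Among the 11 genes named Bmp, 3 were tested. The highest, Bmp1, encodes no BMP but a secreted metalloprotease that trims procollagen and cleaves chordin. Bmp1 (ENSMUSG00000022098.10, chromosome 14, 70474558 to 70520234, minus strand) had 32.2, 33.5 and 42.2 RPKM with the vehicle and 38.8, 38.2 and 48.8 RPKM with the drug. The groups overlapped through DMSO replicate 3, and the log2 difference was 0.22 (interval -0.35 to 0.79). Of the true BMP ligands, Bmp7 gave 75.5% to 96.7% of the summed RPKM. Bmp7 (ENSMUSG00000008999.7, chromosome 2, 172868012 to 172940321, minus strand) had 3.64, 9.60 and 3.41 RPKM with the vehicle and 7.87, 6.38 and 1.94 RPKM with the drug. The highest library was DMSO and the lowest Vismodegib. Its log2 difference was -0.07 (interval -1.28 to 1.13), but 0.37 without DMSO replicate 2 and 0.47 without Vismodegib replicate 3. Bmp2, a ligand known from bone and cartilage, ran from 0.226 RPKM in DMSO replicate 2 to 1.57 RPKM in Vismodegib replicate 1, with a log2 difference of 0.36. The other 8 were low: Bmp4 was at 0.038 to 0.192 RPKM and Bmp3 reached 0.117 RPKM. Bmp5, Bmp6, Bmp8a, Bmp8b, Bmp10 and Bmp15 stayed at or under 0.046 RPKM.

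Growth differentiation factor genes were low throughout. Gdf11, whose product resembles myostatin and signals through activin receptors (ENSMUSG00000025352.6, chromosome 10, 128882295 to 128891718, minus strand), had 0.427, 0.834 and 0.937 RPKM with the vehicle and 0.627, 0.501 and 0.246 RPKM with the drug. DMSO replicates 2 and 3 were above the other 4 libraries. On the log2 scale the difference was -0.36 (interval -1.01 to 0.29), and with each library left out it ran from -0.55 to -0.19, the latter without Vismodegib replicate 3. With quantile normalization the groups did not overlap. Gdf3, a Nodal-related ligand (ENSMUSG00000030117.5, chromosome 6, 122605403 to 122610087, minus strand), had 0.981, 0.320 and 0.245 RPKM with the vehicle and 0.734, 0.309 and 1.32 RPKM with the drug. The groups overlapped, and the log2 difference was 0.34 (interval -0.53 to 1.21), but 0.05 without Vismodegib replicate 3 and 0.64 without DMSO replicate 1. Gdf15, a stress-induced cytokine, was just under the limit for testing, with 0.231, 0.790 and 0.694 RPKM under the vehicle and 0.610, 0.303 and 0.028 RPKM under the drug. These values come to an estimated 2.50 to 43.3 reads per library, and Vismodegib replicate 3 lay under 3 reads. The exact two-sided permutation test of Gdf15 gave p = 0.4, and with 3 libraries a group no p below 0.1 can be reached. Gdf1 reached 0.422 RPKM but shares exons with Cers1 on the same strand, and Gdf2, Gdf5, Gdf6, Gdf9 and Gdf10 stayed at or under 0.171 RPKM.

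Activin subunits had the largest difference of the family. Inhba and Inhbb encode the beta A and beta B chains, whose dimers are activins, while pairing with the alpha chain, from Inha, gives inhibins. Inhbb (ENSMUSG00000037035.5, chromosome 1, 119415465 to 119422248, minus strand) had 6.24, 1.38 and 3.56 RPKM with the vehicle and 9.51, 5.02 and 8.22 RPKM with the drug. Vismodegib replicate 2 lay below DMSO replicate 1, and DMSO replicate 2 was far below the others. The difference on the log2 scale was 1.08 (SE 0.463, interval 0.02 to 2.13, unadjusted p = 0.046 and adjusted p = 1 by limma), higher in 2 of 3 treated libraries than in every control. The unadjusted limma p was 0.079 with median-ratio scaling, 0.074 with quantile normalization, 0.057 with GC content and length trends removed and 0.086 with no filter. The log2 difference itself came to 0.58 without DMSO replicate 2 and 1.51 without DMSO replicate 1. Inhba (ENSMUSG00000041324.14, chromosome 13, 16011851 to 16031621, plus strand) had 9.31, 3.58 and 14.4 RPKM with the vehicle and 16.7, 14.8 and 6.44 RPKM with the drug. The groups overlapped. The fitted log2 difference was 0.54 (interval -0.63 to 1.72), and 0.02 without DMSO replicate 2. The ratio of Inhba to Inhbb within a library was 1.49, 2.60 and 4.03 in DMSO and 1.76, 2.96 and 0.784 in Vismodegib. Inhba was thus the higher of the 2 in every library except Vismodegib replicate 3. Inha was at no more than 0.244 RPKM and Inhbe was listed at 0 in 5 of 6 libraries.

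The bases before the start of Inhbb and of Smad3 are shown because these members had the largest difference and the largest among the SMAD genes, with a window free of annotated exons. Each is the strand of the gene, 5′ to 3′, in the 250 bases before the RefSeq start on GRCm38.p6, and capitals mark AGAC or its reverse complement GTCT, the short core bound by SMAD3 and SMAD4. Inhbb lies at chr1:119422249-119422498, minus strand, and Smad3 at chr9:63757995-63758244, minus strand.
Inhbb: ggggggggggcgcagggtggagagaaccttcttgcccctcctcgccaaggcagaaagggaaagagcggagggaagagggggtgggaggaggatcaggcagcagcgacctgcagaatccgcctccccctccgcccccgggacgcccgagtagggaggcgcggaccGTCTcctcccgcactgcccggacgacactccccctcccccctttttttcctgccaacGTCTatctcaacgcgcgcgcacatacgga
Smad3: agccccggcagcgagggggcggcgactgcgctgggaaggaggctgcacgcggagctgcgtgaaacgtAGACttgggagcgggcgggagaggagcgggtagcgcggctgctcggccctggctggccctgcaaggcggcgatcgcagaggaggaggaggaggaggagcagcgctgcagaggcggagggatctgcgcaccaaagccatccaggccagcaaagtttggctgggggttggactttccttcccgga
The core was matched at 2 places in Inhbb and at 1 in Smad3. A match of 4 letters is common: 37 of the 41 members with a RefSeq window held it (90.2%), against 84.96% of 27025 genes. The GC-rich sequence GGCGCC, a palindrome bound by SMAD proteins of the BMP branch, was in 9 of the 41 windows (22.0%) and in 10.8% of all. The windows of the members were also richer in G and C, with a median of 64.6% against 52.4%. The GLI sequence GACCACCCA, searched on both strands, was in 0 of the 41 windows and in 0.255% of all. These are matches of letters in a short window and say nothing on binding.

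**Figure D2:**
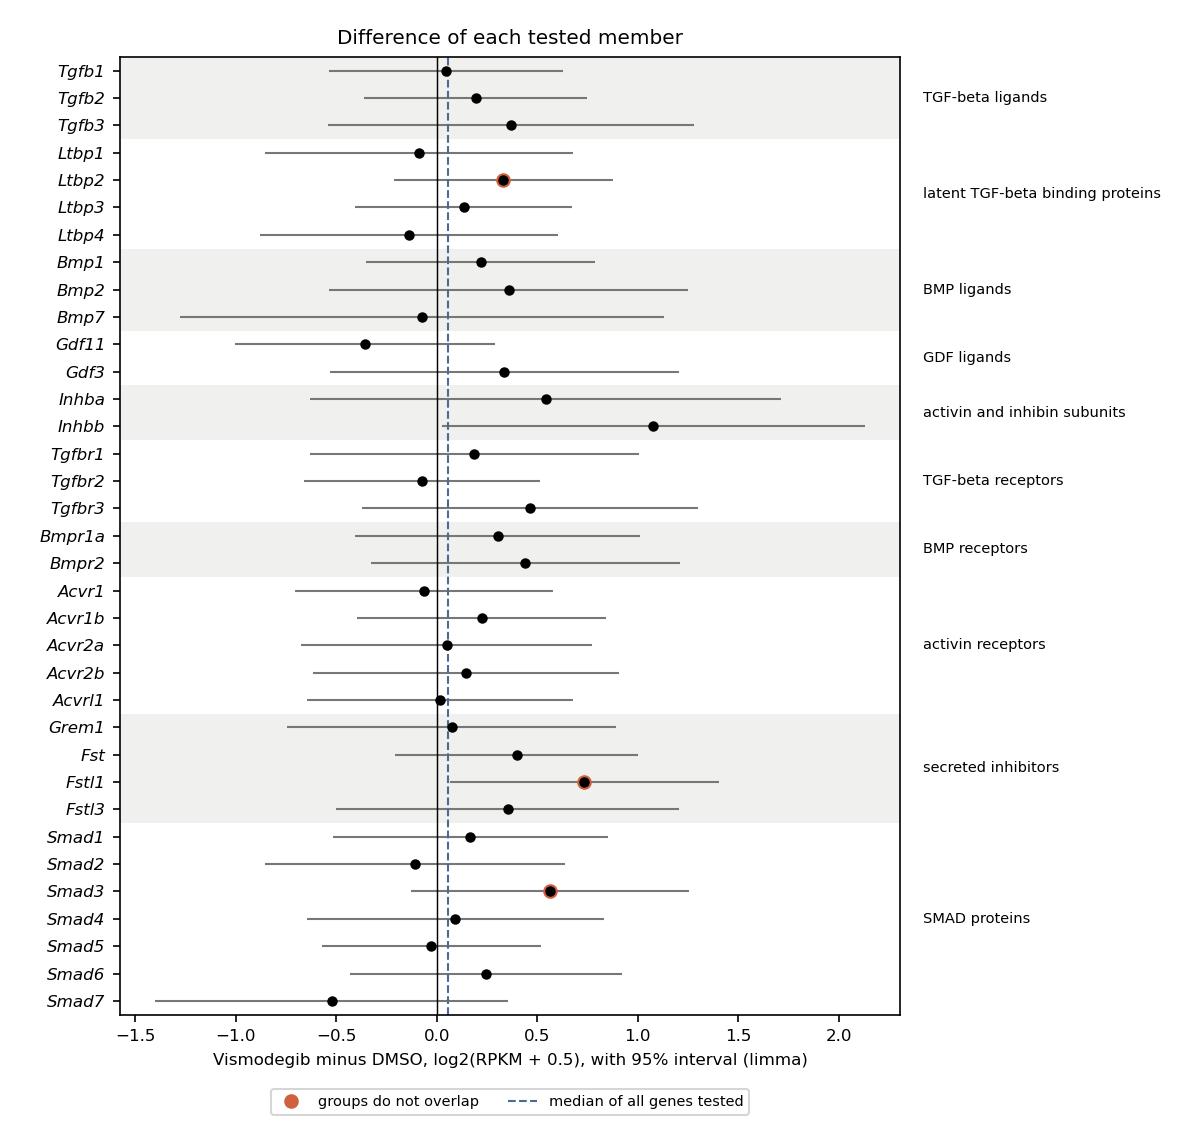
Difference between Vismodegib and DMSO for the 35 tested genes on the log2(RPKM + 0.5) scale, with limma's 95% interval as a bar. Orange rings mark the 3 genes whose groups did not overlap, the dashed line the median of all genes tested, 0.05. Only the intervals of Fstl1 and Inhbb lie above 0.

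TGF-beta receptor RNA was moderate and overlapped between the groups. Tgfbr1, the type I receptor kinase (ENSMUSG00000007613.15, chromosome 4, 47353222 to 47414931, plus strand), had 4.63, 1.94 and 3.62 RPKM with the vehicle and 5.26, 3.82 and 2.56 RPKM with the drug, and a log2 difference of 0.19 (interval -0.63 to 1.01). Without DMSO replicate 2, the lowest library, it was -0.12. Tgfbr2, the type II kinase that binds TGF-beta first (ENSMUSG00000032440.13, chromosome 9, 116084293 to 116175360, minus strand), had 2.76, 2.64 and 3.35 RPKM with the vehicle and 3.50, 2.34 and 2.46 RPKM with the drug. Both groups spanned much the same range, and the log2 difference was -0.07 (interval -0.66 to 0.51). Tgfbr3, betaglycan, a co-receptor that presents TGF-beta 2 and also binds inhibin (ENSMUSG00000029287.14, chromosome 5, 107106570 to 107289629, minus strand), had 0.959, 0.132 and 0.246 RPKM with the vehicle and 1.07, 0.408 and 0.764 RPKM with the drug. DMSO replicate 1 lay among the treated libraries. Its log2 difference was 0.46 (interval -0.37 to 1.30), and it ran from 0.22 without DMSO replicate 2 to 0.83 without DMSO replicate 1.

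The groups also overlapped in the tested receptors for BMPs and activins. Bmpr1a, a type I BMP receptor (ENSMUSG00000021796.15, chromosome 14, 34410734 to 34503341, minus strand), had 3.67, 2.96 and 5.56 RPKM with the vehicle and 6.38, 5.22 and 3.67 RPKM with the drug. Bmpr2, the type II receptor (ENSMUSG00000067336.6, chromosome 1, 59763400 to 59879014, plus strand), had 2.47, 0.892 and 2.23 RPKM with the vehicle and 2.93, 2.72 and 2.05 RPKM with the drug. Their log2 differences were 0.30 (interval -0.41 to 1.01) and 0.44 (interval -0.33 to 1.21). Without DMSO replicate 2, the lowest library for both, they were 0.12 and 0.10, and without DMSO replicate 3 that of Bmpr1a was 0.53. Bmpr1b, the other type I BMP receptor, was too low to be tested, with 0.0045, 0.048 and 0.012 RPKM under the vehicle and 0.064, 0.090 and 0.061 RPKM under the drug. Its groups did not overlap (exact permutation p = 0.1, the smallest possible), as in 3.89% of all 23381 rows in that direction. Its values come to an estimated 0.896 to 20.6 reads per library.

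Acvr1b, the type I activin receptor ALK4 (ENSMUSG00000000532.11, chromosome 15, 101174067 to 101213684, plus strand), had 1.32, 2.29 and 2.31 RPKM with the vehicle and 2.60, 2.06 and 2.36 RPKM with the drug, and a log2 difference of 0.22 (interval -0.40 to 0.84), which was 0.015 without DMSO replicate 1. Acvrl1, ALK1, a type I receptor best known from endothelium (ENSMUSG00000000530.16, chromosome 15, 101128522 to 101145336, plus strand), had 2.30, 1.75 and 1.73 RPKM with the vehicle and 2.93, 1.55 and 1.56 RPKM with the drug. In each group replicate 1 was the highest, as it was for the summed endothelial markers, at 26.7 and 32.7 RPKM. The part of these cells was not tested. The log2 difference of Acvrl1 was 0.02 (interval -0.65 to 0.68), and -0.23 without Vismodegib replicate 1. Acvr1, a type I receptor of BMPs, and the type II activin receptors Acvr2a and Acvr2b ran from 0.231 to 1.60 RPKM over all libraries, with log2 differences of -0.06, 0.05 and 0.15. Acvr1c was listed at 0 in 4 of 6 libraries and reached 0.023 RPKM.

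Secreted inhibitors keep ligands from their receptors. Fstl1 had the smallest unadjusted p of the family. It encodes a secreted glycoprotein related to follistatin that mesenchymal cells make and that is reported to bind BMP4 (ENSMUSG00000022816.11, chromosome 16, 37776873 to 37836514, plus strand). Fstl1 had 11.89, 11.83 and 11.97 RPKM with the vehicle and 22.2, 13.7 and 26.7 RPKM with the drug. The DMSO values were nearly equal, and all 3 treated libraries stood above them, replicate 2 by little. The log2 difference was 0.73 (SE 0.294, interval 0.07 to 1.40, unadjusted p = 0.035 and adjusted p = 1 by limma), and the exact permutation test gave p = 0.1, the smallest possible. The unadjusted limma p was 0.060 with median-ratio scaling, 0.067 with the replicate block and 0.054 with GC content and length trends removed. With each library left out in turn the difference ran from 0.53 to 1.01, and its unadjusted limma p from 0.0099 without Vismodegib replicate 2 to 0.118 without Vismodegib replicate 3. The difference was 0.50 under library weights, the lowest of all alternatives, and the groups overlapped with median-ratio scaling.

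The ratio of Fstl1 to the summed fibroblast markers was 0.124, 0.095 and 0.115 in DMSO and 0.116, 0.116 and 0.114 in Vismodegib, so that the treated libraries lay inside the range of the controls. The 2 libraries highest in Fstl1, Vismodegib replicates 3 and 1, were also the 2 highest in the markers. What part fibroblast content had in the difference of Fstl1 was not tested.

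**Figure D3:**
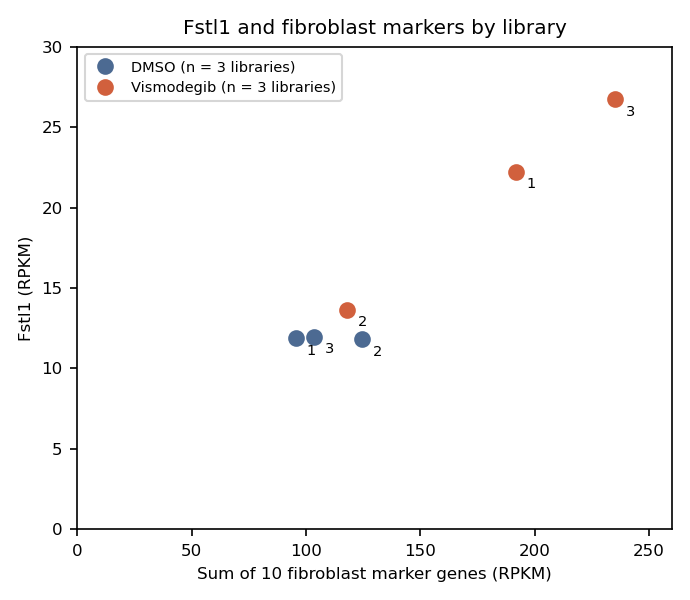
Fstl1 RPKM against the summed RPKM of 10 fibroblast marker genes in each of the 6 libraries, with replicate numbers beside the points (DMSO blue, Vismodegib orange). Vismodegib replicates 1 and 3 stand apart at 191.6 and 235.1 RPKM of markers and at 22.2 and 26.7 RPKM of Fstl1, while replicate 2 lies beside the DMSO libraries.

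Fst and Fstl3 encode follistatin and its relative, which bind and neutralise activin. Fst (ENSMUSG00000021765.9, chromosome 13, 114452290 to 114458951, minus strand) had 0.192, 0.650 and 0.350 RPKM with the vehicle and 0.623, 0.734 and 0.616 RPKM with the drug. DMSO replicate 2 lay within the treated values and the other controls below them. The difference on the log2 scale was 0.40 (interval -0.21 to 1.002), and it ran from 0.23 without DMSO replicate 1 to 0.59 without DMSO replicate 2. Fstl3 (ENSMUSG00000020325.10, chromosome 10, 79777272 to 79782630, plus strand) had 2.81, 1.37 and 3.19 RPKM with the vehicle and 4.15, 3.91 and 1.83 RPKM with the drug, and a log2 difference of 0.35 (interval -0.50 to 1.21). Leaving out DMSO replicate 2 gave 0.05 and leaving out Vismodegib replicate 3 gave 0.67. Its groups overlapped, and its libraries ranked in the same order as for Inhba. The ratio of Inhba to the sum of Fst and Fstl3 was 2.98 ± 1.15 in DMSO and 3.11 ± 0.438 in Vismodegib (mean ± SD, n = 3 libraries each). Grem1, which encodes the BMP antagonist gremlin 1, ran from 1.49 to 3.67 RPKM, with a log2 difference of 0.07 that turned below 0 under quantile normalization. Noggin and chordin, the classical BMP antagonists, had little RNA: Nog reached 0.173 RPKM and Chrd 0.080 RPKM.

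SMAD RNAs differed widely in level. Smad3 (ENSMUSG00000032402.12, chromosome 9, 63646767 to 63757994, minus strand) had 12.5, 7.71 and 14.3 RPKM with the vehicle and 14.6, 21.1 and 15.1 RPKM with the drug. All 3 treated libraries stood above the controls, with a narrow gap between DMSO replicate 3 and Vismodegib replicate 1. The log2 difference was 0.56 (SE 0.304, interval -0.13 to 1.26, unadjusted p = 0.098 and adjusted p = 1 by limma). It was 0.31 without DMSO replicate 2, and the groups overlapped with median-ratio scaling, quantile normalization or removal of trends on GC content and length. Smad2, whose product is activated by the same receptors, was lower, from 0.994 to 2.43 RPKM, with a log2 difference of -0.11. In every library Smad3 exceeded Smad2, by 3.17-fold in DMSO replicate 2 to 15.2-fold in Vismodegib replicate 3.

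In the BMP branch, Smad5 and Smad1 were expressed, and Smad9 was listed at 0 in 5 of 6 libraries, with an estimated 0.999 reads in Vismodegib replicate 2. For Smad9, 3 reads correspond to 0.0097 to 0.016 RPKM. Smad5 (ENSMUSG00000021540.16, chromosome 13, 56703010 to 56742377, plus strand) had 8.84, 9.35 and 9.63 RPKM with the vehicle and 7.85, 8.98 and 10.6 RPKM with the drug. It was among the steadiest members, with a log2 difference of -0.03 (interval -0.57 to 0.52). Smad1 ran from 3.10 to 5.78 RPKM and Smad4, the shared partner, from 4.19 to 8.42 RPKM, with log2 differences of 0.17 and 0.09.

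Of the inhibitory SMADs, Smad7, a feedback target that blocks TGF-beta receptors, had the lowest difference of the family. Smad7 (ENSMUSG00000025880.11, chromosome 18, 75367529 to 75395935, plus strand) had 3.79, 5.20 and 5.97 RPKM with the vehicle and 4.70, 4.41 and 1.59 RPKM with the drug. The groups overlapped, and Vismodegib replicate 3 was well below the other 5. The log2 difference was -0.52 (interval -1.40 to 0.35), and -0.10 without Vismodegib replicate 3. Smad6, the inhibitor of the BMP branch, ran from 0.455 to 1.10 RPKM, with a log2 difference of 0.24. The ratio of Smad3 to Smad7 ran from 1.48 to 3.29 in DMSO and from 3.12 to 9.49 in Vismodegib, with overlap.

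**Figure D4:**
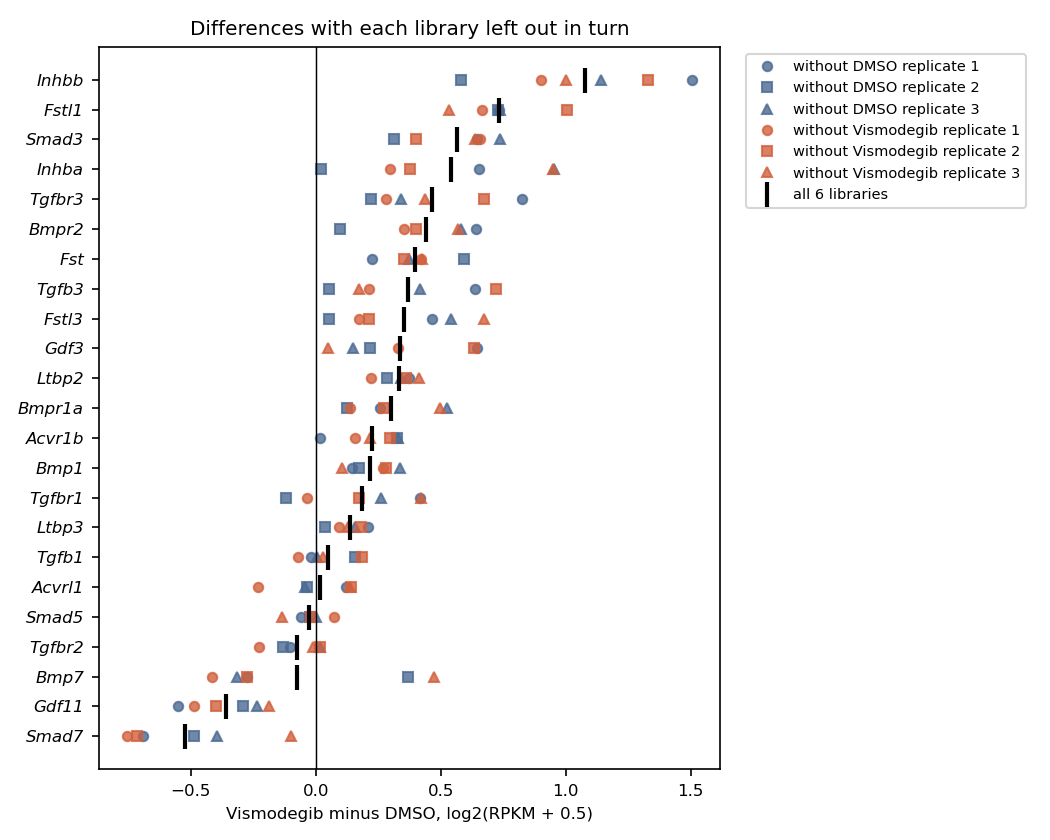
Log2 difference of the 23 genes given library by library, with all 6 libraries (black tick) and with each library left out in turn (blue for DMSO, orange for Vismodegib; circle, square and triangle for replicates 1, 2 and 3). Leaving out DMSO replicate 2 brings Inhba to 0.02 and Bmp7 to 0.37, and leaving out Vismodegib replicate 3 brings Smad7 to -0.10.

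Other genes of the pathway were taken from 7 lists, and 94 of the 99 listed symbols had a row. Of the 66 tested, 42 had differences above 0 and 24 below, with a median of 0.10, against 0.05 over all genes. With median-ratio scaling the count above 0 was 37 (56.1%, against 49.2% of all genes), and with quantile normalization 34 (51.5%, against 47.4%). Without Vismodegib replicate 1 it was 33, with a median of 0.0054, and without Vismodegib replicate 3 it was 50, with a median of 0.19. None was called, 2 had an unadjusted p under 0.05 by limma (against 2.25% of all genes tested), and in 3 (4.55%, near the 4.29% of all genes) the treated libraries all stood above the controls.

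The 13 tested targets of SMAD2 and SMAD3 had 9 differences above 0 and a median of 0.21, against 58.4% and 0.05 over all genes. Cdkn2b, which encodes the cell cycle inhibitor p15 and is induced by TGF-beta in epithelium, had 0.346, 0.640 and 0.427 RPKM with the vehicle and 1.12, 0.892 and 0.968 RPKM with the drug. Its groups did not overlap, and its log2 difference was 0.63 (interval 0.08 to 1.18, unadjusted p = 0.030 by limma, not called). Col1a1, a collagen gene that is also one of the fibroblast markers, had a log2 difference of 0.74 (interval -0.12 to 1.59), and Ccn2, a matricellular target, one of 0.36. The 4 tested targets of the BMP SMADs had 2 differences above 0 and 2 below. Id3, an inhibitor of helix-loop-helix factors, had 96.8, 337 and 177 RPKM with the vehicle and 110, 122 and 142 RPKM with the drug. The treated values all lay inside the range of the controls, with a log2 difference of -0.53 (unadjusted p = 0.246 by limma). Id1, a close relative, had a log2 difference of 0.20. Hey1 had 3.48, 0.264 and 0.174 RPKM with the vehicle and 1.48, 0.609 and 0.861 RPKM with the drug. Its log2 difference was 0.18 (interval -1.24 to 1.60), though its mean RPKM was lower with the drug, at 0.983 against 1.31.

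Of 13 tested genes of latency and activation, 11 had differences above 0, with a median of 0.34. Over all genes, 58.4% were above 0, with a median of 0.05. Thbs1, thrombospondin 1, which can activate latent TGF-beta, had 23.6, 4.35 and 15.7 RPKM with the vehicle and 30.4, 30.5 and 24.0 RPKM with the drug. The groups did not overlap, DMSO replicate 1 and Vismodegib replicate 3 being nearly equal and DMSO replicate 2 far below the rest. The log2 difference was 1.21 (interval 0.01 to 2.41, unadjusted p = 0.048 by limma, not called). Itgb5, an integrin chain, and Pcsk6, a proprotein convertase, had log2 differences of 0.62 and 0.46. Among 10 other extracellular inhibitors and modulators, 5 were above 0 and 5 below. Fmod, which encodes fibromodulin, a proteoglycan that binds collagen and TGF-beta, had 1.02, 1.41 and 0.456 RPKM with the vehicle and 1.47, 1.53 and 5.51 RPKM with the drug. The groups did not overlap, and Vismodegib replicate 3, the library highest in fibroblast markers, was far above the rest. The fitted log2 difference was 1.04 (interval -0.03 to 2.10). The proteoglycan genes Dcn, also one of the fibroblast markers, and Bgn had log2 differences of 0.70 and 0.58. In the 5 tested receptors and co-receptors, differences were 0.72 for Rgma and -0.39 for Rgmb, which encode BMP co-receptors, and 0.46 for Tgfbr3l. Lefty1, the single other ligand tested, had a difference of 0.05. The 23 tested intracellular regulators had 12 differences above 0 and 11 below, with a median of 0.01. The smallest p values belonged to Ctdsp1, Ep300 and Usp11, with differences of 0.50, 0.45 and 0.33. Ep300 had 0.233 RPKM in DMSO replicate 2 and 1.13 to 1.31 RPKM in the other libraries.

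**Figure D5:**
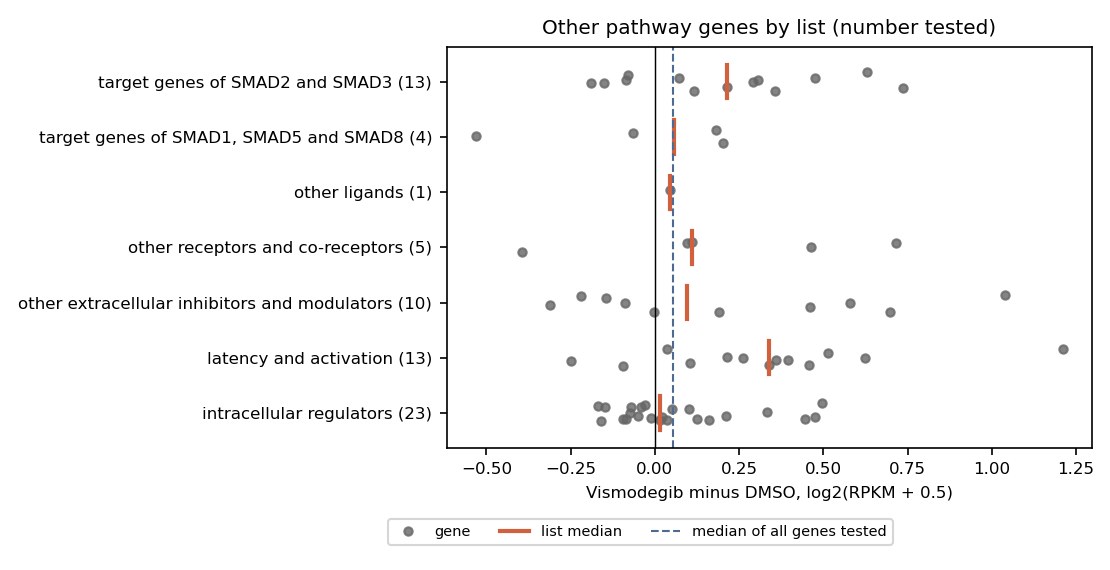
Log2 differences of the tested genes in 7 lists of other pathway genes, with the number tested in brackets. Each dot is a gene, each orange bar a list median, and the dashed line the median of all genes tested, 0.05. The medians run from 0.01 for intracellular regulators to 0.34 for latency and activation.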

How the data were processed

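The tools named in the submitters' processing notes are bcl2fastq 2.17, STAR, HISAT2, cutadapt, Partek and SAMtools, with mm10 as the build. What each did, the annotation and any use of strand were not given in the sources used here. RPKM values per gene symbol were deposited by the authors. Read totals were recovered from the steps of low values in 6990 genes with 1 transcript in GENCODE M21 (mm10), as the total at which most values of up to 20 reads were whole within 0.02 reads. They were 34800000 to 57900000 per library, with 75.4% to 78.5% of such values whole. Reads per gene, and the RPKM of 3 reads, were estimated from these totals and the longest annotated transcript, so reads need not be whole. A total too high by a whole-number factor would not be noticed, and limits from 3 reads cover counting error only.

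The 11818 genes averaging 0.5 RPKM or more were taken as log2(RPKM + 0.5) and tested in R 4.3.3 by limma 3.58.1 (eBayes with trend, group as the only term, two-sided, threshold 0.05). The steps were tested on simulated data with independent values, a setting that does not cover libraries that stand apart across many genes. The members and lists were chosen with earlier results of these data known. Values per library are given for the 2 highest genes of each role, for tested genes whose groups did not overlap, for the 12 with the smallest p, and for genes with a library 4 times the median at 0.5 RPKM or more (none met this last condition). Of each other list, the 3 genes with the smallest p are named. Gdf15 and Bmpr1b were given by library after their values were seen. Coordinates are from GENCODE M21, in which all 57 genes were found, and upstream sequences from RefSeq. Alternatives changed the pseudocount, filter, scaling, variance estimate, library weights, replicate block and GC content and length trends, and left out each library in turn.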

Additional observations from a re-analysis of the deposited data

How the results depend on the processing

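Of 17 alternatives, none gave a called member. Over all genes, the number called was 420 with limma's library weights (which stopped before their tolerance was reached) and 1 with the replicate block. It was 0 to 19 with each library left out in turn, 19 being without DMSO replicate 1. The library weights were 0.32, 0.316 and 7.275 in DMSO and 1.264, 2.336 and 0.461 in Vismodegib, so that DMSO replicate 3 dominated its group. Among the other pathway genes, 1 was called with library weights, Fmod. The members whose groups do not overlap numbered 0 with median-ratio scaling (5.25% of all genes) and 4 to 11 of 35 with each library left out (8.72% to 27.0% of all genes), where fewer libraries have to separate. The 23 members given by library kept the sign of their difference in 367 of 387 recomputed values, and 15 kept it throughout. Signs turned only in members with main differences between -0.07 and 0.22. With median-ratio scaling Tgfb1 was -0.022 and Acvrl1 -0.049; with quantile normalization, -0.0050 and -0.073. Library weights gave -0.067 for Bmp1, 0.68 for Bmp7 and -0.0041 for Acvr1b, and removal of GC content and length trends -0.020 for Acvrl1. With each library left out, Tgfb1 ran from -0.072 to 0.18, Bmp7 from -0.42 to 0.47, Tgfbr1 from -0.12 to 0.42, Tgfbr2 from -0.23 to 0.018, Acvrl1 from -0.23 to 0.14 and Smad5 from -0.13 to 0.071. The cause of these changes was not tested.

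Replicate numbers gave no sign of pairing, though correlations of 3 pairs cannot settle whether the design was paired. The deviations of same-numbered libraries from their group means correlated across genes at 0.0032, 0.04 and -0.30, and not every library correlated best with its own number. The replicate block called Fam25c over all genes and 0 members. Counts of reads limit the 22 members under 0.5 RPKM, and 3 libraries a group limit the others.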
